A study of Mus musculus with 38 samples.

Results

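The genes described here are the Zfp genes that lie in 5 windows of the mouse genome known for dense clusters of zinc-finger genes. They were taken by symbol and by start position from the gene count table (build GRCm38.p6), and the members span chr2:170108643-181592803, chr4:145510759-147848366, chr10:81704825-82241280, chr13:62129886-67827002 and chr17:21008903-24682015. This gave 89 of 55298 genes, of which 13 were on chromosome 2, 18 on chromosome 4, 4 on chromosome 10, 30 on chromosome 13 and 24 on chromosome 17. A further 332 genes with a Zfp symbol lay elsewhere, and the windows held 1173 other genes.

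Most zinc-finger genes of such clusters encode KRAB zinc-finger proteins, which bind DNA through an array of C2H2 zinc fingers and recruit the corepressor Trim28 through their KRAB domain. Trim28 in turn brings in the histone methyltransferase Setdb1, heterochromatin proteins and histone deacetylases, and the target, often a transposable element (TE), is silenced with H3K9me3. The clusters have grown by duplication, so that neighbours can be close copies of each other, and they are themselves rich in TEs and known to carry Trim28 and H3K9me3.

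Trim28 was targeted in 5 bulk RNA-seq experiments. Neural progenitor cells (NPCs) came from the forebrain of Rosa26-Cas9 knock-in embryos at embryonic day 13.5, received lentiviral guide RNAs against exon 3, 4 or 13 of Trim28 (6 cultures) or against lacZ (2 cultures), and were sorted for RFP after 10 days. In Cas9-GFP and Stop-Cas9-GFP knock-in mice, AAV vectors with the same guides were injected into the forebrain of adults. The Stop-Cas9-GFP line also received Cre under the neuronal Synapsin promoter. Nuclei were sorted about 2 months later (4 Trim28-KO and 1 lacZ control library in each line). The Trim28-KO libraries of a line received the guide of exon 3, 4 or 13, or all 3 together. In the Trim28-flox experiment (4 libraries labelled Trim28-KO, 4 labelled control) adult Trim28-flox mice (+/- and +/+) were co-injected in the forebrain with AAV vectors. These express Cre or nuclear GFP in neurons through the Synapsin promoter, and GFP-positive nuclei were sorted about 2 months later. The paper names the +/+ animals as Trim28-KO. Cortex of 3-month-old mice came from Emx1-Cre (+/-); Trim28-fl (+/+) animals (Trim28-KO, n = 3) and from Emx1-Cre (+/-); Trim28-fl (+/-) controls (n = 3), so that the controls carried Cre and had lost 1 allele, and animals of this cross could also carry a gtRosa reporter allele. Emx1-Cre acts in cortical progenitors, which give rise to excitatory neurons, astrocytes and oligodendrocytes, but not in the lineages of interneurons and microglia. Single-nuclei RNA-seq covered 4 of these 6 animals, Trim28-KO 60 and 73 and control 64 and 65, so these nuclei are not independent of the bulk cortex.

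The members are mostly intact zinc-finger genes. Of the 89, 87 were annotated as protein coding, 44 lay on the plus and 45 on the minus strand, and the translated proteins held a median of 11 C2H2 zinc fingers, with a range from 0 to 30. The median was 7 on chromosome 2, 11 on chromosome 4, 13 on chromosome 10, 14 on chromosome 13 and 12 on chromosome 17. The windows differed in how alike their genes are. On chromosome 4 a median of 41.4% of all stretches of 100 bases in a member's transcripts also occurred in another gene, against 32.0% on chromosome 2, 37.8% on chromosome 10, 3.45% on chromosome 13 and 0% on chromosome 17. In 28 members the share was above 20%, 13 of them on chromosome 4, and uniquely mapped reads can be lost or misplaced for these genes.

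Of the 89 members, 74 had a promoter in the RefSeq table (build GRCm38.p6, 250 bases before and 50 bases after the start). The promoters of Zfp979, Zfp981 and Zfp984, which were called higher in the Trim28-KO cortex and have 1 promoter each in the table, are shown beside that of Zfp933, a neighbour in the same window that was not. Capitals mark the longest word shared by the first 3, which was chosen after the calls were known.
Zfp979 promoter, chr4:147642459-147642758, - strand: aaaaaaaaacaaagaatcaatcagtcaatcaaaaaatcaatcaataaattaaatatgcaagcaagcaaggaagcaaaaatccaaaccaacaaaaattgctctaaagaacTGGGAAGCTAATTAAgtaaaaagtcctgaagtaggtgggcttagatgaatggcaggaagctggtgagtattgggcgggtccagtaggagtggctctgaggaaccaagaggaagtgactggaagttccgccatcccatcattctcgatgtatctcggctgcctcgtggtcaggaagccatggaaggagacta
Zfp981 promoter, chr4:146514670-146514969, + strand: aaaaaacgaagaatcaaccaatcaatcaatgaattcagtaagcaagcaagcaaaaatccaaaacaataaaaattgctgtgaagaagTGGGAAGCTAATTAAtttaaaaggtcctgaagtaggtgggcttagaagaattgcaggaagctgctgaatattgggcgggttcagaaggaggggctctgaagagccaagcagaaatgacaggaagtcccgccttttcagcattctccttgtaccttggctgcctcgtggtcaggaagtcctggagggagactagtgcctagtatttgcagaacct
Zfp984 promoter, chr4:147809739-147810038, - strand: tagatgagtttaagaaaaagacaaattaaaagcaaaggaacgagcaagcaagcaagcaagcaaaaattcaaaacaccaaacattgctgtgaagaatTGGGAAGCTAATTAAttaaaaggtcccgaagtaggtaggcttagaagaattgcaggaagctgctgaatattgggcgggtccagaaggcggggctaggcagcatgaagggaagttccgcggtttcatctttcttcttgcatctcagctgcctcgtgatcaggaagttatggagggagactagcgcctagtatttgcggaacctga
Zfp933 promoter, chr4:147848369-147848668, - strand: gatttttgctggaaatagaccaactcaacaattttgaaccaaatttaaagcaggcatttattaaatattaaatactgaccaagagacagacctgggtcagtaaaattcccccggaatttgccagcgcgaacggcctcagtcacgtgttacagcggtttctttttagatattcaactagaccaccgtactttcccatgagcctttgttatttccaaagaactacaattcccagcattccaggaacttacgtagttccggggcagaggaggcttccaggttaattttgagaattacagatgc
The word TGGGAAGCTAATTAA of 15 bases was searched on both strands of all 32851 promoters in the table, and 12 of them (0.0365%) held it. Among the members it occurred in 10, all of which lie on chromosome 4 (Zfp534, Zfp600, Zfp979, Zfp980, Zfp981, Zfp982, Zfp984, Zfp985, Zfp987 and Zfp988). The promoters of Zfp979, Zfp981 and Zfp984 were identical at between 68.9% and 78.2% of aligned positions, while that of Zfp933 matched them at between 49.6% and 52.2%. Of the 10 members with the word, Zfp979, Zfp981 and Zfp984 hold it by construction, since they were picked among the called members. Zfp982 was also called in the cortex, and the other 6 had too few reads to be tested there. The word can thus not be set against the calls. Zfp991 and Zfp992, also called in the cortex, were not among the 10, and neither had exactly 1 promoter in the table. Zfp993, which was called higher in nuclei and has 1 promoter in the table, lacked the word and matched those of Zfp979, Zfp981 and Zfp984 at between 46.3% and 47.0%.

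Members were expressed at low to moderate levels. Over the 11 bulk libraries labelled control, 66 of 89 had a mean above 1 CPM (reads of the gene relative to the normalized library size) and 35 had a mean above 10 CPM. These libraries include those labelled Trim28-flox control, in which Trim28 was low, as given below. In all libraries together 7 members had under 10 reads, of which Zfp935 had 0. The highest mean of each window was that of Zfp512b on chromosome 2 (212 CPM), Zfp598 on chromosome 17, a ribosome-associated ubiquitin ligase (109 CPM), Zfp738 on chromosome 13 (51.1 CPM), Zfp933 on chromosome 4 (36.6 CPM) and Zfp938 on chromosome 10 (34.5 CPM). Levels depended on the material. Zfp512b was at 26.3 to 27.1 CPM in control cortex, at 72.2 and 72.3 CPM in control NPCs and at 315 to 417 CPM in the nuclei of the libraries labelled Trim28-flox control. Per kilobase of exon, Zfp598 ranged from 1.39 CPM in control cortex to 68.2 CPM in the libraries labelled Trim28-flox control, and Zfp938 from 10.8 CPM in control NPCs to 18.9 CPM in control cortex. None of these 5 genes was called in any of the 5 experiments.

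The bulk libraries held between 8790346 and 25345083 gene counts. The targeted gene, Trim28, was at 157 and 204 CPM in the control NPCs and between 36.8 and 73.6 CPM in the Trim28-KO NPCs, and at 19.0 to 21.4 CPM in control and 6.08 to 8.88 CPM in Trim28-KO cortex. In Cas9-GFP mice Trim28 was at 143 CPM in the control and 93.8 to 105 CPM in the Trim28-KO libraries, and in Stop-Cas9-GFP mice at 105 CPM and 88.5 to 127 CPM. These are RNA levels. For both lines the paper reports efficient editing of the gene, mostly by frameshifts in Cas9-GFP mice, and loss of Trim28 protein in neurons. In the Trim28-flox experiment Trim28 went against the labels, with 131 to 146 CPM in the libraries labelled Trim28-KO and 25.6 to 31.6 CPM in those labelled control. The paper reports that the Trim28 transcript was lost in the knockout nuclei of this experiment. These libraries are named by their label throughout. Cortex library Trim28-KO 76 had a TMM factor of 0.754, outside the range of the others (0.962 to 1.09). In the sorted nuclei of the 3 injected lines 4 of 4 striatal neuron markers were above 1 CPM, with sums of 1109 to 1662 CPM. In the cortex the summed level of 5 of 5 oligodendrocyte markers was lower in Trim28-KO (2064 to 2214 CPM) than in control libraries (2561 to 2764 CPM). The sum of 8 inhibitory neuron markers was also lower (1059 to 1259 against 1264 to 1319 CPM). That of 7 neural progenitor markers was higher (79.0 to 92.6 against 73.1 to 76.7 CPM). For the other marker lists the groups overlapped. The part of these differences in the cortex results was not tested. In bulk samples, fewer cells of a type and less RNA per cell cannot be told apart. Except for animals, the labels do not say whether libraries come from separate cultures, so p-values measure the spread between these libraries.

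**Figure D1:**
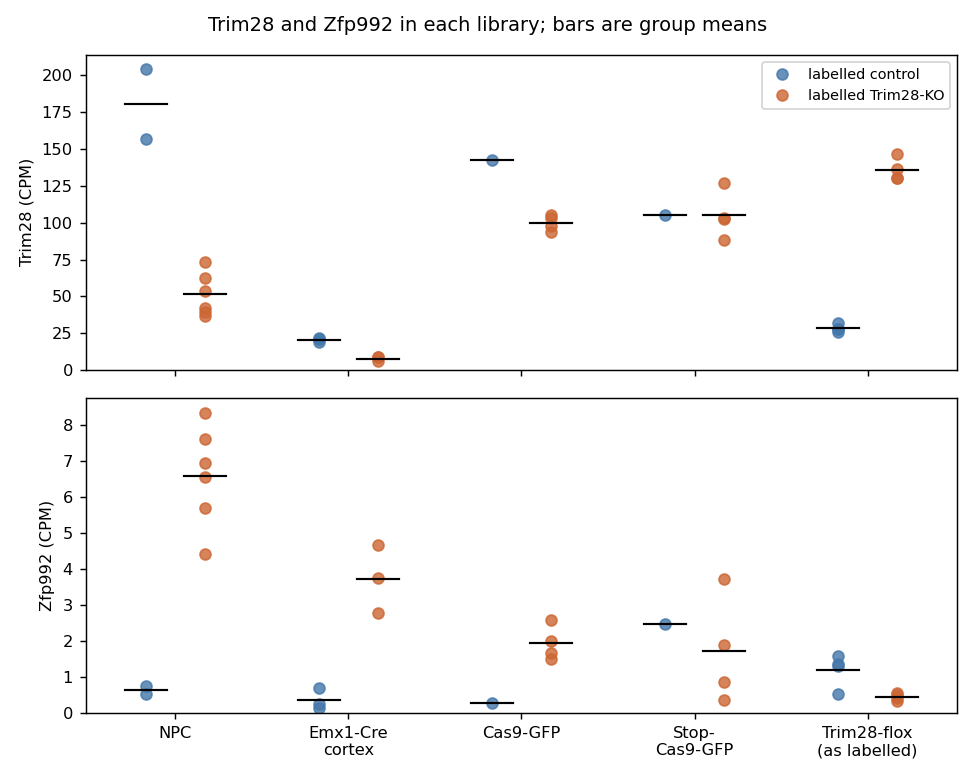
Level of Trim28 (top) and of the chromosome 4 member Zfp992 (bottom) in each bulk library in CPM, with points for libraries and bars for group means. In NPCs and cortex the Trim28-KO libraries lie below the controls for Trim28 and above them for Zfp992, and in the Trim28-flox experiment the libraries labelled Trim28-KO had the higher Trim28 (131 to 146 CPM) and Zfp992 between 0.333 and 0.556 CPM.

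In the cortex 6 of the 18 chromosome 4 members were called higher in Trim28-KO, while Zfp933, the one with the most reads, was not, and the other 11 had too few reads for the test. Of 68 members tested, 8 were called higher and 0 lower in Trim28-KO (edgeR's quasi-likelihood test, where a call needs a p below 0.05 after Benjamini-Hochberg adjustment over all genes and a log2 change larger than 0.5), where 0.86% of all 16271 genes were called higher and 0.467% lower. At an unadjusted p under 0.05, 15 members were higher (22.1%, against 4.57% of all genes) and 0 lower. DESeq2 called 0 members lower. The 8 were 6 of the 7 members tested on chromosome 4, 1 of 26 on chromosome 13 and 1 of 24 on chromosome 17. Members with few control reads, such as Zfp981, passed the filter on low counts through their Trim28-KO libraries, while members low in both groups were left out. The share of members called on chromosome 4 is thus partly set by the filter. The summed level of all 18 chromosome 4 members was 37.6 to 40.3 CPM in the controls and 61.9 to 70.0 CPM in Trim28-KO, with no overlap. The sums of chromosome 2 (107 to 118 against 119 to 126 CPM) and chromosome 10 (45.7 to 48.7 against 52.2 to 63.3 CPM) did not overlap either. Those of chromosomes 13 and 17 did. Of the other genes of the 5 windows, 11 of 352 tested (3.12%) were called higher, and of the Zfp genes elsewhere 5 of 299 (1.67%).

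Zfp992 (chr4:146449023-146470292, plus strand, 11 zinc fingers) was at 0.145, 0.707 and 0.267 CPM in control 64, 65 and 77 and at 3.75, 2.79 and 4.68 CPM in Trim28-KO 60, 73 and 76. Each Trim28-KO library lay above each control, and the log2 fold change was 3.41 with a standard error of 0.40 (adjusted p = 0.00067). Zfp981 (chr4:146502027-146539395, plus strand, 7 zinc fingers) had 2, 1 and 1 reads in the controls and 31, 27 and 25 reads in Trim28-KO, or 0.0726, 0.0544 and 0.0444 CPM against 1.76, 1.40 and 1.98 CPM. It was close to silent in control cortex, so its fitted log2 fold change of 4.71 with a standard error of 0.43 (adjusted p = 9.01e-05) rests on 4 control reads and depends on the prior count. Zfp979 (chr4:147611937-147642513, minus strand) was at 0.798, 0.979 and 1.29 CPM in the controls and at 5.91, 4.65 and 8.24 CPM in Trim28-KO, a log2 fold change of 2.6 with a standard error of 0.26 (adjusted p = 0.000205).

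Zfp982 (chr4:147492417-147513486, plus strand), of which 3.06% of stretches of 100 bases are shared with another gene, was at 0.399, 0.761 and 0.933 CPM in the controls and at 2.96, 4.08 and 4.36 CPM in Trim28-KO. Its log2 fold change was 2.46 with a standard error of 0.29 (adjusted p = 0.000801). Zfp991 (chr4:147132038-147180579, plus strand) was at 1.71, 2.18 and 3.16 CPM in the controls and at 7.16, 4.96 and 8.48 CPM in Trim28-KO (log2 fold change 1.54, standard error 0.25, adjusted p = 0.00748). This gene shares 70.3% of its stretches of 100 bases with others, so its value is uncertain. Zfp984 (chr4:147753974-147809788, minus strand) was already expressed in the controls, at 4.79, 6.31 and 6.36 CPM, and reached 11.5, 11 and 11.2 CPM in Trim28-KO (log2 fold change 0.95, standard error 0.15, adjusted p = 0.0059).

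The groups did not overlap for any of these 6 genes. Zfp933 (chr4:147822986-147848366, minus strand), the member of the window with the most reads and next to Zfp984, was at 29.4, 28.3 and 27.3 CPM in the controls and at 33.3, 31.2 and 27.7 CPM in Trim28-KO. Its groups overlapped, and its log2 fold change was 0.12 with a standard error of 0.10 (adjusted p = 0.905). The other 11 members of chromosome 4 had too few reads for the test. Among these, Zfp986 (70.0% shared) had 7, 1 and 8 reads in control 64, 65 and 77 and 25, 10 and 20 reads in Trim28-KO, and DESeq2, which tested it, gave a log2 fold change of 2.35 (adjusted p = 0.0338). With it DESeq2 called 9 members higher, where 0.551% of all genes were called higher.

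**Figure D2:**
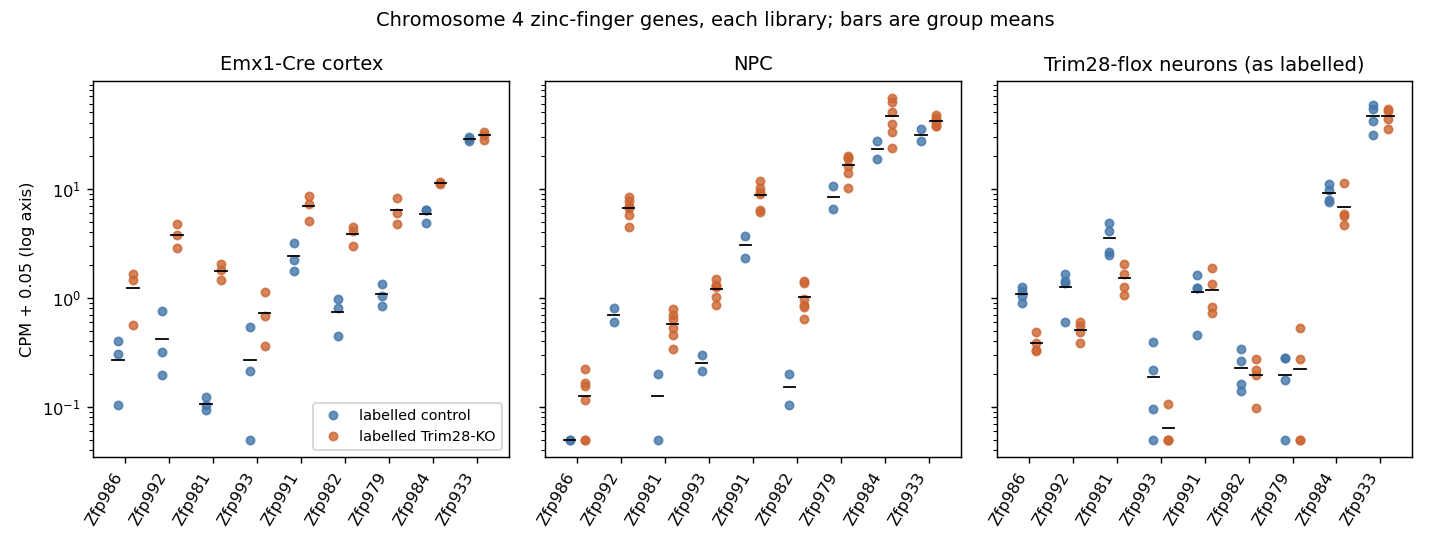
Level of 9 chromosome 4 members in each library, as CPM plus 0.05 on a log axis, in the cortex, the NPCs and the Trim28-flox experiment as labelled, with points for libraries and bars for group means. In the cortex the Trim28-KO libraries of Zfp992, Zfp981, Zfp991, Zfp982, Zfp979 and Zfp984 lie above all controls, while those of Zfp933 overlap them.

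Outside chromosome 4, Zfp808 and Zfp820 were called in the cortex. Zfp808 (chr13:62129886-62236144, plus strand, 22 zinc fingers) was at 1.85, 1.74 and 2.00 CPM in the controls and at 4.49, 4.60 and 4.75 CPM in Trim28-KO (log2 fold change 1.30, standard error 0.17, adjusted p = 0.0017). Zfp820 (chr17:21816885-21845772, minus strand, 12 zinc fingers) was at 0.835, 0.924 and 1.42 CPM in the controls and at 2.50, 2.58 and 2.38 CPM in Trim28-KO (log2 fold change 1.24, standard error 0.25, adjusted p = 0.0295). In both genes the groups did not overlap. The call of Zfp820 was lost with the gene counts of TEtranscripts (adjusted p = 0.135, where 0.874% of all genes were called higher) and without any of Trim28-KO 60, Trim28-KO 73, control 64 or control 65 (adjusted p between 0.0746 and 0.247). Without control 64, 5 members were called, and Zfp991, Zfp984 and Zfp820 were lost.

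Outside these 2 genes no member of the remaining windows was called. Of the 68 members tested, 19 had each Trim28-KO library above each control, where this held for 6.81% of all genes. These included the 4 members of chromosome 10, with log2 fold changes between 0.24 and 0.50, none of which passed the test (adjusted p between 0.21 and 0.763).

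In NPCs 1 member, Zfp992, passed the test without the number series as a block, and more passed with it, as given below. Of 69 members tested, 1 was called higher and 0 lower, where 0.176% of all 16469 genes were called higher and 0.0182% lower. At an unadjusted p under 0.05, 15 members were higher (21.7%, against 2.74% of all genes) and 0 lower, and DESeq2 also called 0 lower. The log2 fold change was above 0 in 65 of the 69 members tested (94.2%, against 51.8% of all genes), a share that was 76.8% without the control of series 2. The summed level of all 18 chromosome 4 members was 63.6 and 69.8 CPM in the controls and at least 84.6 CPM in Trim28-KO, with a median of 127 CPM and no overlap. That of chromosome 13 was 334 and 389 CPM against 331 to 733 CPM and that of chromosome 17 was 368 and 490 CPM against 335 to 701 CPM, so that in both windows the groups overlapped. In 16 members each Trim28-KO library lay above both controls, where this held for 3.83% of all genes, and 6 of these were among the 8 members tested on chromosome 4. Here too a member low in the controls could pass the filter through its Trim28-KO libraries, so this share is partly set by the filter.

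Zfp992 was the member called, at 0.752 and 0.547 CPM in the control of number series 1 and of series 2 and between 4.42 and 8.35 CPM in the 6 Trim28-KO cultures, with a median of 6.76 CPM. The groups were well separated, with a log2 fold change of 3.34 and a standard error of 0.35 (adjusted p = 0.00832). The numbers of the cultures form 2 series with 1 control each, whose meaning the labels do not give, and with the series as a block 4 members were called, where 0.565% of all genes were called higher. These were Zfp992 (adjusted p = 0.00236), Zfp993 (0.0371), Zfp991 (0.0308) and Zfp982 (0.0493). DESeq2 also called these 4 (0.412% of all genes called higher), and the TEtranscripts counts gave 2, Zfp992 and Zfp982 (0.224% called higher). Without the control of series 1 or without that of series 2 the count was 0 (Zfp992 at an adjusted p of 0.165 and 0.21), and without the Trim28-KO culture of guide g3 in series 1 it was 2.

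Zfp991 was at 3.65 and 2.29 CPM in the control NPCs and between 6.05 and 11.6 CPM in Trim28-KO, with a median of 9.09 CPM. Zfp982 had 4 reads in the controls together (0.0537 and 0.149 CPM) and was between 0.587 and 1.39 CPM in Trim28-KO, with a median of 0.861 CPM. Zfp993 (71.9% shared) had 8 reads in the controls (0.161 and 0.249 CPM) and was between 0.802 and 1.43 CPM in Trim28-KO, with a median of 1.22 CPM. For these 3 genes each Trim28-KO culture lay above both controls. The groups overlapped for Zfp984 and Zfp979. Zfp984 was at 27.4 and 18.6 CPM in the controls and between 23.6 and 67.5 CPM in Trim28-KO (log2 fold change 1.00, adjusted p = 0.94), and Zfp979 at 10.4 and 6.42 CPM and between 10.1 and 20.1 CPM (log2 fold change 0.96, adjusted p = 0.644). Zfp808 was at 4.73 and 5.87 CPM in the controls and between 6.92 and 17.2 CPM in Trim28-KO, with no overlap (log2 fold change 1.09, adjusted p = 0.512).

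In the Trim28-flox experiment no member was called. Of 67 members tested 0 were higher and 0 lower in the libraries labelled Trim28-KO (edgeR), where 0.0117% of all 17102 genes were called higher and 0.0292% lower, and DESeq2 called 0. At an unadjusted p under 0.05, 3 of the 67 members were higher (4.48%, against 2.54% of all genes) and 4 lower, where 375 of all 17102 genes were lower. The 4 were Zfp986, Zfp992, Zfp981 and Zfp808. Zfp981 was at 1, 2, 1.2 and 1.62 CPM in the libraries labelled Trim28-KO and at 4.77, 2.59, 2.42 and 4.08 CPM in those labelled control, with no overlap (log2 fold change -1.25, standard error 0.33, adjusted p = 0.761). Zfp992 was at 0.5, 0.556, 0.433 and 0.333 CPM against 1.36, 1.32, 0.548 and 1.59 CPM, where 1 library labelled control lay within the range of the others (log2 fold change -1.39, standard error 0.41, adjusted p = 0.971). Zfp986 was at 0.278, 0.334, 0.433 and 0.285 CPM against 0.979, 1.21, 1.10 and 0.851 CPM, with no overlap (log2 fold change -1.61, standard error 0.35, adjusted p = 0.4). The lower values belong to the libraries labelled Trim28-KO, which were those with the higher Trim28.

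The Cas9-GFP and Stop-Cas9-GFP experiments have 1 control library each, so a difference rests on that library. In Cas9-GFP mice 0 of 73 members tested were called higher or lower, where 0% of all 19004 genes were called in either direction, and in Stop-Cas9-GFP mice 0 of 74, where 0% of 18777 genes were called (edgeR, with DESeq2 calling 0 in both). At an unadjusted p under 0.05, 7 members were higher (9.59%, against 5.39% of all genes) and 0 lower in the first, and 1 was higher (1.35%, against 1.91%) and 1 lower in the second. Zfp992 was at 0.295 CPM in the Cas9-GFP control and at 2.6, 1.51, 2.01 and 1.67 CPM in the Trim28-KO libraries of g3, g4, g13 and the 3 guides together (log2 fold change 2.68, standard error 1.18, adjusted p = 0.593). In Stop-Cas9-GFP mice it was at 2.48 CPM in the control and at 3.74, 0.379, 1.90 and 0.871 CPM in the same order (log2 fold change -0.52, standard error 1.11, adjusted p = 1). The Trim28-KO libraries lay above the control in the first line and on both sides of it in the second. The summed level of the chromosome 4 members other than Zfp933 and Zfp984, a set chosen after the values were seen, was 8.64 CPM in the Cas9-GFP control and between 12 and 18.3 CPM in Trim28-KO. It was 17.5 CPM in the Stop-Cas9-GFP control and between 8.54 and 19.3 CPM in Trim28-KO. The same sum was 3.41 to 6.67 CPM in control and 19.7 to 31.1 CPM in Trim28-KO cortex.

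**Figure D3:**
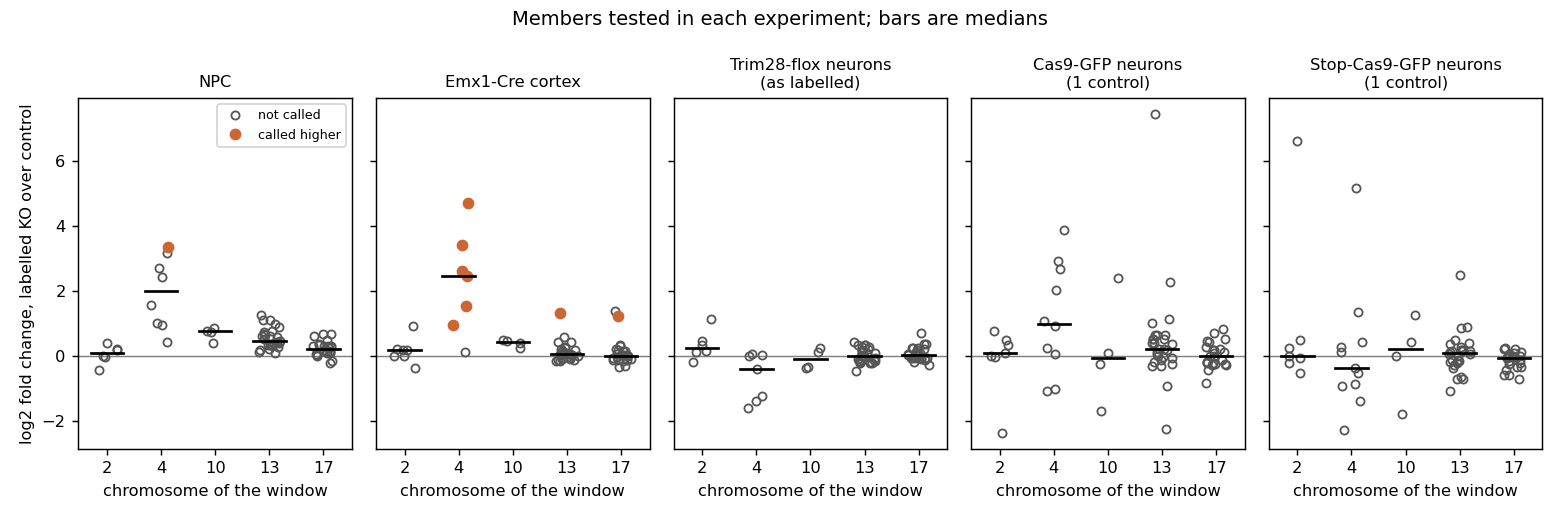
Log2 fold change of labelled Trim28-KO over control for the members tested in each experiment, by the chromosome of their window, with filled points for called members and bars for medians of the members tested, which leave out those with too few reads. Called members are seen in NPCs (1, in the fit without the number series as a block) and in the cortex (8, of which 6 lie on chromosome 4). The Cas9-GFP and Stop-Cas9-GFP panels rest on 1 control library each.

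Whether the effect of Trim28 loss differed between experiments was tested in a joint fit of the NPC, cortex and Trim28-flox libraries, in which 75 members were tested. Between the cortex and the Trim28-flox experiment as labelled, 4 members differed (0.193% of all genes called higher), namely Zfp981 whose effects differed by 5.99 on the log2 scale (standard error 0.67), Zfp992 by 4.75 (0.59), Zfp986 by 3.9 (0.76) and Zfp808 by 1.76 (0.33). DESeq2 gave 4 higher and 1 lower, Zfp217 on chromosome 2 (-1.52, adjusted p = 0.0408). Between NPCs and the Trim28-flox experiment 3 differed (0.183% called higher), Zfp992 by 4.75 (0.60), Zfp981 by 3.97 (0.74) and Zfp808 by 1.6 (0.33), and DESeq2 gave 5. Both contrasts share the Trim28-flox libraries, whose labels Trim28 goes against. With the sign of the Trim28-flox effect turned, an alternative added after the data were seen, 0 members differed in either contrast (edgeR, 0.00963% and 0.0915% of all genes called higher, DESeq2 not run). Before adjustment, at p under 0.05, 8 members were then higher and 0 lower in the first (1.45% of all genes higher) and 11 higher and 0 lower in the second (3.08%). Zfp981 then differed between cortex and Trim28-flox by 3.44 with an adjusted p of 0.142. Whether these members differ between the experiments thus rests on the Trim28-flox labels. In the orientation in which the libraries with less Trim28 stand for the knockout, 0 were called. Between NPCs and cortex 0 members differed (edgeR, 0.0433% of all genes called higher, 1 member higher and 1 lower at an unadjusted p under 0.05), and DESeq2 also gave 0.

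Counts on individual TE copies were read within 10 kb of the members. In the cortex 6 of 143 copies near members were called higher, or 4.2%, where 2.67% of all 14556 tested copies were called, and 5 of the 6 lay on chromosome 4, where 14 copies were tested. A copy with few control reads could pass the filter through its Trim28-KO libraries, so these shares are partly set by the filter. Of the 5, an RMER15 copy (chr4:147753949-147754196, minus strand) overlapped Zfp984 on its strand, and its reads cannot be told apart from those of that gene. In NPCs 3 of 272 were called, or 1.1%, where 0.55% of all 35091 copies were called. In the Cas9-GFP, Stop-Cas9-GFP and Trim28-flox experiments 0 of 424, 465 and 166 copies near members were called (edgeR), where 0.163%, 0.0114% and 0% of all copies were called higher. At an unadjusted p under 0.05, 31, 8 and 0 of these copies were higher and 8, 2 and 2 lower, and no other tool was run on copies. A copy of the LINE family Lx (chr4:146480273-146480704, plus strand), 9981 bases downstream of Zfp992 on its strand, was called in both experiments. In the cortex it had 5 reads in the controls and 65 in Trim28-KO (log2 fold change 4.05, standard error 0.51, adjusted p = 7.23e-07), and in NPCs 2 reads in the controls and 75 in Trim28-KO (adjusted p = 0.014). Next to Zfp982 a B1_Mm copy (chr4:147515478-147515610, minus strand) had 19 reads in control and 66 in Trim28-KO cortex, and a RMER15 copy (chr4:147515838-147516149, plus strand) 19 and 64. They lie 1992 and 2352 bases downstream of the gene.

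Nuclei of the cortex carry the same genes. After filtering, 3609 and 3590 nuclei of Trim28-KO 60 and 73 and 3407 and 3065 of control 64 and 65 were kept, with a median of 8088 to 8840 UMIs, and 36 barcodes occurred in more than 1 library. Of the 89 members, 80 had a UMI. Trim28 itself was at 7.96 and 7.60 CPM in Trim28-KO and at 9.33 and 8.46 CPM in control nuclei, but these are 3' tags that can lie outside the deleted part and so do not check the knockout. With UMIs summed per animal over all nuclei, 9 of 73 members tested were higher and 0 lower in Trim28-KO, where 2.27% of all 17400 genes were called higher and 1.83% lower. They were Zfp986, Zfp992, Zfp981, Zfp993, Zfp991, Zfp982 and Zfp979 of chromosome 4, Zfp808 and Zfp820, with log2 fold changes between 0.97 (Zfp808) and 3.17 (Zfp992) apart from Zfp979, which had 1 and 2 UMIs in the controls and 16 and 16 in Trim28-KO. A member low in the controls could pass the filter on low counts through its Trim28-KO animals, so the share called in nuclei is partly set by the filter. Before adjustment, at p under 0.05, 22 members were higher and 3 lower, where 12.9% of all genes were higher and 11.9% lower, and DESeq2 called 9, with Zfp995 in place of Zfp979. Without control 64 the count was 15, of which 1 was lower (10.6% of all genes higher, 5.65% lower), without control 65 it was 13 (4.49% and 4.15%), and without a filter on low counts it was 5 (0.239% and 0.152%).

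Clusters of nuclei were named from marker genes as X-like, and 2 clusters of 370 and 226 nuclei stayed unnamed. In excitatory-like nuclei 8 of 71 members were higher and 0 lower, where 4.82% of all genes were called higher and 3.91% lower. Zfp992 was at 0.636 and 0.680 CPM in the controls and at 11.4 and 9.32 CPM in Trim28-KO (log2 fold change 3.97, standard error 0.26, adjusted p = 0.000452). Zfp981 was at 1.96 and 1.07 CPM and at 11.4 and 9.80 CPM (log2 fold change 2.81, standard error 0.28, adjusted p = 0.00294). The other 6 were Zfp986, Zfp993, Zfp991, Zfp982, Zfp808 and Zfp820, with log2 fold changes between 1.04 and 2.41. Zfp933 was at 47.3 and 40.8 CPM in the controls and at 61.2 and 61.6 CPM in Trim28-KO with an adjusted p of 0.0406 but a log2 fold change of 0.48, under the limit for a call. Without control 64 the count was 16, of which 4 were lower (12.5% of all genes higher, 7.37% lower), without control 65 it was 15 (7.04% and 5.19%), and without a filter on low counts it was 2 (0.0986% and 0.0359%). The excitatory-like nuclei were made up of different clusters in the groups, with 888 and 1077 nuclei of cluster 1 in Trim28-KO and 532 and 569 in the controls, 163 and 77 of cluster 5 against 269 and 273, and 6 and 56 of cluster 12 against 0 and 16. The part of this in the excitatory-like results was not tested.

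In astrocyte-like nuclei 5 of 50 members were higher, where 0.923% of all genes were. Members close to silent in the controls could enter the 50 through their Trim28-KO animals, so this share is partly set by the filter. Zfp982 had 5 and 0 UMIs in the controls and 47 and 31 in Trim28-KO (3.90 and 0 against 38.4 and 26.1 CPM, adjusted p = 0.00565). Zfp808 was at 33.5 and 38.9 CPM in the controls and at 115 and 100.3 CPM in Trim28-KO (log2 fold change 1.59, standard error 0.21, adjusted p = 0.00181). Zfp992 had 1 and 1 UMIs in the controls and 25 and 28 in Trim28-KO, Zfp981 2 and 2 against 29 and 18, and Zfp993 1 and 0 against 22 and 22, so that their control levels rest on a few molecules. In oligodendrocyte-like nuclei 2 of 24 members were higher (1.85% of all genes), Zfp982 with 3 and 4 UMIs in the controls and 16 and 7 in Trim28-KO and Zfp808 with 25 and 16 against 22 and 24. These nuclei numbered 569 and 343 in the controls and 233 and 163 in Trim28-KO. Their summed UMIs over all genes were 1483484 and 887427 in the controls and 520303 and 434038 in Trim28-KO. The raw UMIs of the groups are thus not on the same scale, and the test accounts for these totals. In OPC-like nuclei, the progenitors of oligodendrocytes, 1 of 17 was higher (0.135% of all genes), Zfp982 with 3 and 3 UMIs in the controls and 34 and 30 in Trim28-KO.

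In inhibitory-like nuclei 0 of 54 members were called (edgeR, 0% of all genes called higher). At an unadjusted p under 0.05, 2 members were higher and 0 lower, where 7.7% of all genes were higher and 6.8% lower. Zfp992 had 1 and 3 UMIs in the controls and 6 and 3 in Trim28-KO, and Zfp981 was at 2.54 and 1.93 CPM in the controls and at 2.65 and 3.22 CPM in Trim28-KO. Zfp808 was at 16.4 and 20.2 CPM in the controls and at 13.0 and 16.5 CPM in Trim28-KO, where the groups overlapped. In microglia-like nuclei 0 of 19 were called (0% of all genes), and in vascular-like nuclei 0 of 4 (0% of all genes). At an unadjusted p under 0.05, 0 members were higher and 2 lower in microglia-like nuclei, where 2.51% of all genes were higher and 4.55% lower. In vascular-like nuclei 0 were higher or lower at this p, where 1.2% of all genes were higher and 1.49% lower. DESeq2 was not run on these 3 types. Microglia-like nuclei of the controls already had Zfp981 at 134 and 140 CPM, with 62 and 44 UMIs, and it was at 174 and 207 CPM in Trim28-KO. They held 62 of the 118 and 44 of the 80 Zfp981 UMIs of control 64 and 65. In the control nuclei of the excitatory-like, inhibitory-like, astrocyte-like, oligodendrocyte-like and OPC-like types Zfp981 did not exceed 2.54 CPM.

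**Figure D4:**
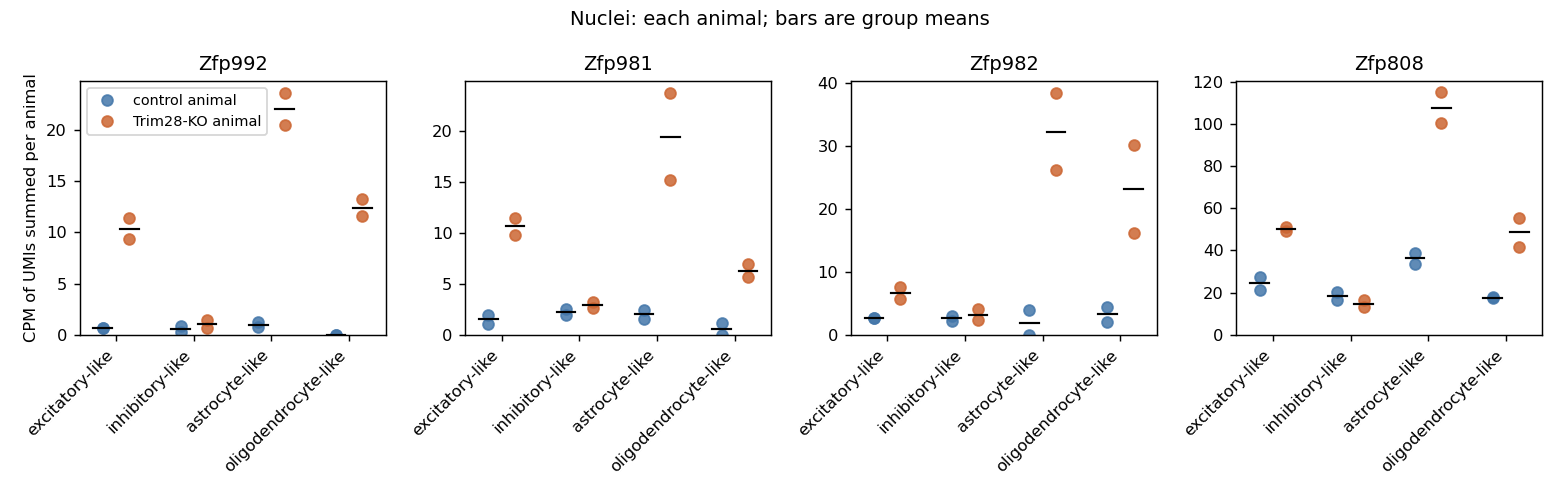
Level of Zfp992, Zfp981, Zfp982 and Zfp808 in 4 types of cortex nuclei, as CPM of UMIs summed per animal, with points for the 4 animals and bars for group means. Both Trim28-KO animals lie above both controls in excitatory-like, astrocyte-like and oligodendrocyte-like nuclei, and in inhibitory-like nuclei the groups overlap for Zfp992, Zfp982 and Zfp808, the last at 16.4 and 20.2 CPM in the controls and 13.0 and 16.5 CPM in Trim28-KO.

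Whether the effect differed between types was tested with the animal as a block, a comparison added after the data were seen. Between excitatory-like and inhibitory-like nuclei 3 of 69 members differed (0.766% of all genes called higher), Zfp981 by 2.39 on the log2 scale (0.52 standard error, adjusted p = 0.0285), Zfp808 by 1.31 (0.20, adjusted p = 0.00285) and Zfp369 by 0.75 (0.15, adjusted p = 0.0176). Zfp369 was named after its values were seen. Between astrocyte-like and inhibitory-like nuclei 2 of 58 differed (0.696% called higher), Zfp982 by 3.55 (0.83, adjusted p = 0.019) and Zfp808 by 1.92 (0.29, adjusted p = 0.000111). Between astrocyte-like and excitatory-like nuclei 1 of 72 differed (1.47% called higher), Zfp982 by 2.48 (0.68, adjusted p = 0.0266).

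The partners of these proteins were read from a list of 13 genes, made of Trim28, its methyltransferase Setdb1, heterochromatin proteins, deacetylases and other silencing factors. Trim28 was the gene of this list called in any experiment, lower in the NPCs and in the cortex and higher in the libraries labelled Trim28-KO of the Trim28-flox experiment. Of 7 zinc-finger genes known to repress endogenous retroviruses or to guard imprints, 5 were tested in each experiment and 0 were called (edgeR). Zfp708 of that list is itself a member on chromosome 13 and had too few reads for the test, and 94.2% of its stretches of 100 bases are shared with another gene.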

How the data were processed

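Bulk RNA-seq libraries and cortex nuclei were analysed as grouped by the labels, and CUT&RUN was not used here. Per the file headers and the submitters' processing notes, the authors aligned reads to GRCm38.p6 (STAR 2.6.0) and deposited raw counts per gene and per TE copy from featureCounts (Subread 1.6.3). They also deposited gene counts from TEtranscripts, which shares reads with several matches among copies, and UMI counts per barcode from Cell Ranger 3.0. Columns named flexcas were taken as the Stop-Cas9-GFP libraries, and 6 columns of the TE table that match no sample were not used.

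In R 4.3.3, each experiment was fitted alone with edgeR 4.0.16 (TMM, filterByExpr, quasi-likelihood test), with p adjusted by the Benjamini-Hochberg method over all genes tested. The filter keeps a gene with enough reads in as many libraries as the smallest group has, so a gene high in Trim28-KO alone can pass. Calls needed an adjusted p below 0.05 with a log2 change larger than 0.5 up or down. DESeq2 1.42.0, other normalization factors, no filter, TEtranscripts counts and leaving out each library were alternatives. TE copies used the library sizes of the genes. The NPC number series was taken as a pairing in an alternative fit, while the main NPC fit and the joint fit did not use it. Deviations of same-series libraries from their group means correlated (r between 0.419 and 0.698, while different series mirrored this by construction with 1 control each). Nuclei within 3 median absolute deviations were clustered with Seurat 5.3.0 (2000 variable genes, 20 components, resolution 0.1), doublets were not called, leaving out the 5% of nuclei with most UMIs was the check, and UMIs were summed per animal. Scripts were tested on simulated data. The members, the gene lists and the named genes (Trim28, members called by edgeR or DESeq2 in any bulk experiment or in nuclei, and the most abundant member of each window) were chosen with earlier results of these data known.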

Additional observations from a re-analysis of the deposited data

Results flagged for a closer look

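In a test of the difference itself, the effect in the cortex exceeded that in the Trim28-flox experiment as labelled by a log2 fold change of 5.99 for Zfp981, 4.75 for Zfp992, 3.9 for Zfp986 and 1.76 for Zfp808. The effect in NPCs exceeded it by 4.75 for Zfp992, 3.97 for Zfp981 and 1.6 for Zfp808. Both share the Trim28-flox libraries, in which Trim28 was higher in the libraries labelled Trim28-KO. The sign of the Trim28-flox effect was also turned, so that the libraries with less Trim28 stand for the knockout, an alternative chosen after the data were seen. In that orientation 0 members were called in either (edgeR), so these differences rest on the labels.

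In nuclei the effect in excitatory-like exceeded that in inhibitory-like nuclei by 2.39 for Zfp981, 1.31 for Zfp808 and 0.75 for Zfp369. In astrocyte-like nuclei it exceeded the effect in inhibitory-like nuclei by 3.55 for Zfp982 and 1.92 for Zfp808, and that in excitatory-like nuclei by 2.48 for Zfp982.

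A library labelled Trim28-KO of the Trim28-flox experiment had Zfp993 at 0.0556 CPM, a single read, where the other 3 of its group had 0. Among 65 pairs of a gene and a group of libraries examined in this way 1 such library was found. The rule flags about 1 in 20 such pairs by chance if values are normally distributed. That rate does not apply here, since a single read beside 3 values of 0 is always flagged.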

How the results depend on the processing

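No gene named by its call reversed under the alternatives run. Medians of uncalled members did turn, and not only those near 0. In a joint fit of both Cas9 lines the Cas9-GFP median over all members went from 0.12 to -0.01. That on chromosome 4 went from 0.98 to -0.01. Of the counts of members or TE copies and the other summary values, 67 alternatives stayed within the tolerance and 18 moved, and of the log2 fold changes of named genes 240 kept their side of the threshold, 24 lost and 11 gained it. The count called in NPCs was 1, and 4 with DESeq2, 2 with the TEtranscripts counts, 4 with the replicate block, and between 0 and 2 with each library left out. The paired fit applies to NPCs, and the block changed no call of Zfp992. In Cas9-GFP neurons it was 0, and 1 without a filter. In the cortex it was 8, and between 5 and 10 with each library left out. Over all nuclei it was 9, with 5 without a filter and between 7 and 15 with each animal left out, and in excitatory-like nuclei 8, with 2 without a filter and between 8 and 16. The difference between NPCs and the Trim28-flox experiment was called for 3 members, and for 5 by DESeq2 in the joint fit. With the Trim28-flox effect turned, it was 0 for both the cortex (4 as labelled) and NPCs. With overlap required, called TE copies fell to 0 in NPCs and 1 in the cortex. The causes were not tested. Leaving 1 animal in a group of nuclei, or 1 control in NPCs, assumes that the lone sample varies like the others. Members with a few reads could not be judged at this depth, and values of those that share much of their sequence stay uncertain.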
